A study of Mus musculus with 4 samples.

Results

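Double-positive cells are brain T cells whose RNA barcode held at least 1 unique molecular identifier (UMI, a tag that counts 1 captured transcript) of Il17a and at least 1 of Ifng, the genes of the cytokines IL-17A and interferon gamma. They numbered 106 of the 3964 brain barcodes kept, which is 2.67% (exact 95% binomial interval 2.19 to 3.23%), and 106 of 12123 barcodes kept in the series. A barcode was kept when it held at least 500 genes, at least 1000 UMIs, at most 10% mitochondrial UMIs, at most 1 productive T cell receptor beta chain (TRB) and at most 2 productive alpha chains (TRA). The brain cells used beside them were 262 Il17a-only cells (6.61%), 1635 Ifng-only cells (41.2%) and 1961 cells with neither transcript. Among 8159 spleen barcodes kept there were 0 double-positive cells, which allows a share of up to 0.0368%; 11 spleen cells held an Il17a UMI and 615 an Ifng UMI. The mice were WT C57BL/6 animals in which experimental autoimmune encephalomyelitis (EAE, a model of multiple sclerosis set off by immunization) had been induced, sampled at day 60. CD4+ CD44+ GITR- conventional T cells were sorted from brain and spleen, and 18718 brain and 38000 spleen cells were loaded for 5′ single-cell RNA and T cell receptor libraries. Each tissue gave 1 RNA library and 1 receptor library, and the labels do not say how many animals were pooled. With 1 brain library the groups of cells have no replicate, so values are given without a test, and every interval covers counting error only.

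IL-17A is the defining cytokine of Th17 cells, which use the receptors for IL-23 and IL-1, and the chemokine receptor CCR6. Interferon gamma is the defining cytokine of Th1 cells, which use T-bet (gene Tbx21), the IL-12 receptor and CXCR3. In mice with EAE, Th17 cells are known to be able to gain Tbx21 and interferon gamma while IL-23 acts on them, and cells with both cytokines are found in the inflamed central nervous system.

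The cells carried the markers of CD4 T cells: Cd3e and Cd4 each had a UMI in 104 of 106 double-positive cells, and Cd8a had none. Markers of CD8 T cells and B cells were at 0 or low. Summed Cd8a and Cd8b1 came to 7.22 CPM (a gene's UMIs scaled to the same total in each group). The B cell genes Cd79a, Ms4a1 and Iglc2 were at 0. All 5 B cell genes summed to 35.5 CPM in double-positive cells, 45.2 CPM in Il17a-only cells and 88.6 CPM in Ifng-only cells. The 6 myeloid genes summed to 323 CPM in double-positive cells, 317 CPM in Il17a-only cells and 292 CPM in Ifng-only cells, the 6 microglial genes to 1571 CPM in double-positive cells, 1978 CPM in Il17a-only cells and 1722 CPM in Ifng-only cells, and the 4 oligodendrocyte genes to 258 CPM in double-positive cells, 236 CPM in Il17a-only cells and 274 CPM in Ifng-only cells; these levels were close in all 3 groups, and Csf1r, Tmem119 and Mog were at 0 in double-positive cells. Of the 6 gamma delta T cell genes found in the files, of 9 listed, the summed level was 82.2 CPM in double-positive cells, 51.9 CPM in Il17a-only cells and 32.4 CPM in Ifng-only cells; Trdc and Sox13 were at 0 in double-positive and Il17a-only cells, and 10 of 106 double-positive cells held 2 or more of these genes against 9 of 262 Il17a-only cells and 73 of 1635 Ifng-only cells. In cells with both a productive TRB and a productive TRA, 1 of these gamma delta genes reached 50 CPM. That gene was higher in double-positive than in Il17a-only cells (log2 ratio 2.50) and than in Ifng-only cells (log2 ratio 1.54). The 5 natural killer and NKT genes summed to 21.7 CPM in double-positive cells, 8.59 CPM in Il17a-only cells and 47.5 CPM in Ifng-only cells. No double-positive cell carried the TRAV11 to TRAJ18 alpha chain of invariant NKT cells, which 103 Ifng-only cells and 0 Il17a-only cells carried.

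The receptor sequences below belong to clonotypes that linked double-positive cells to the other states, where a clonotype is the set of cells with the same TRB and TRA V genes and the same nucleotide sequence of the third complementarity-determining region (CDR3), the stretch of each chain that is unique to a clone. They are written 5′ to 3′ from the deposited contigs; capitals mark the bases that lie between the stretch shared with most other clonotypes of the same V gene and the stretch shared with most other clonotypes of the same J gene. The TRB genes are on chromosome 6 and the TRA genes on chromosome 14. The first set shows the clonotypes T1 and T2, which held 7 and 4 double-positive cells, and T8, which has the same TRB as T2. In T8 another alpha chain had most UMIs, and 27 of the 32 brain cells with this TRB held both alpha chains. In the alpha chain of T2 no base lay outside the shared stretches.
T1 TRB, TRBV20 to TRBJ2-5: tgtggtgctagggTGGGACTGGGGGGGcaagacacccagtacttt
T1 TRA, TRAV7D-2 to TRAJ23: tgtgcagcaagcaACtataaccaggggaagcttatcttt
T2 and T8 TRB, TRBV20 to TRBJ2-1: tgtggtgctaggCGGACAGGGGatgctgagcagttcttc
T2 TRA, TRAV14D-3-DV8 to TRAJ12: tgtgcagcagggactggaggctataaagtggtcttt
T8 TRA, TRAV9N-3 to TRAJ21: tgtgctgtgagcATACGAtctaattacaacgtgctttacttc
The second set, T5 and A3 to A8, shows the alpha chains that joined TRAV7D-2 to TRAJ23 in the other 7 clonotypes with a double-positive cell. Each is given with its beta chain's V gene, because this pair of segments recurred among double-positive cells beside different beta chains.
T5 TRA, beside TRBV19: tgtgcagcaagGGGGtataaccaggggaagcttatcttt
A3 TRA, beside TRBV20: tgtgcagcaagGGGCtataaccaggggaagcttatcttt
A4 TRA, beside TRBV15: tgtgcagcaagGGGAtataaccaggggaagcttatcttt
A5 TRA, beside TRBV19: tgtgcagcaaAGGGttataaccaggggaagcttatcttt
A6 TRA, beside TRBV13-3: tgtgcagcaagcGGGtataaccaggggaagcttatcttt
A7 TRA, beside TRBV16: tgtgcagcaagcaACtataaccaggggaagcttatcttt
A8 TRA, beside TRBV5: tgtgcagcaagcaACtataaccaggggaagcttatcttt

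Receptor capture and depth set the double-positive cells apart from the single-positive ones. A productive TRB and TRA were both found in 58 of 106 double-positive cells (54.7%, 44.8 to 64.4%), in 223 of 262 Il17a-only cells (85.1%) and in 1345 of 1635 Ifng-only cells (82.3%). No receptor contig at all was found for 42 double-positive cells (39.6%), against 11.8% of Il17a-only and 12.2% of Ifng-only cells. Those 42 cells had a median of 23356 UMIs, against 11348.5 UMIs in the 58 double-positive cells with a paired receptor, 11100 UMIs in Il17a-only and 10352 UMIs in Ifng-only cells with a paired receptor. Of all 106 cells, 39 were among the 5% of brain cells with most UMIs, and 33 of these 39 had no contig. The double-positive share was 1.85% (1.41 to 2.38%) of cells with a paired receptor, 6.85% (4.98 to 9.15%) of cells without a contig, and 11.7% (7.41 to 17.4%) of the 179 barcodes left out for holding more than 1 TRB, whose median was 15160 UMIs. No doublet caller was run, and the part of depth and of barcodes that hold 2 cells in these counts was not tested; the main results are also given for the 58 cells with a paired receptor, whose median depth was closer to that of the single-positive groups.

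**Figure D1:**
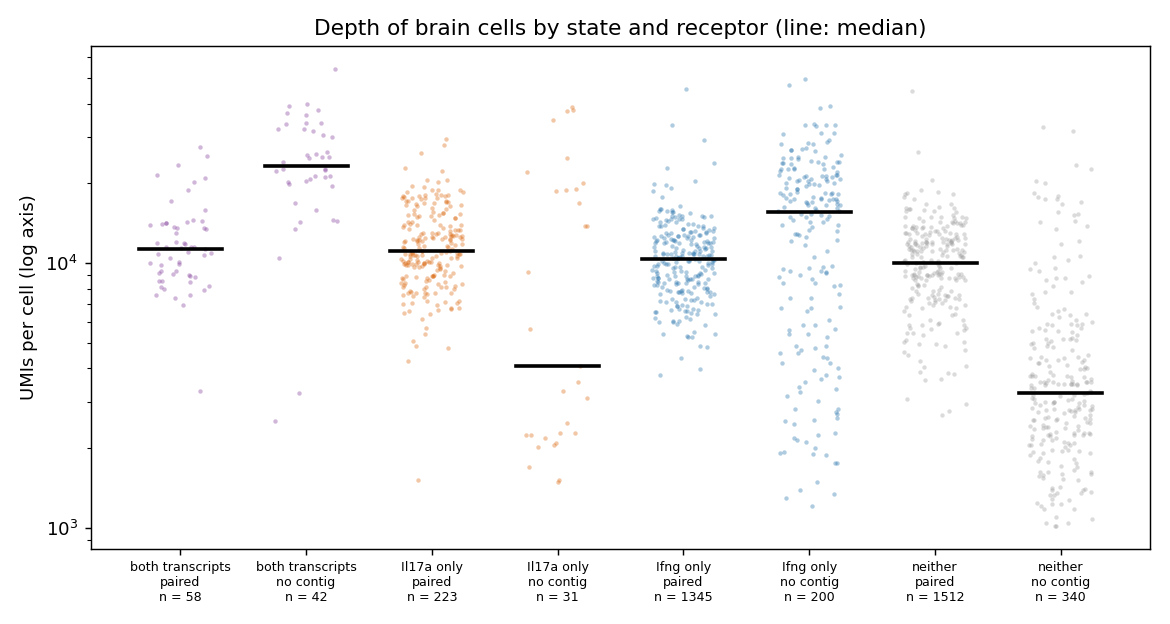
UMIs per brain cell on a log axis, by cytokine state and receptor; points are cells (at most 250 drawn per group), the line is the median of all cells in the group, and n is the number of cells. Double-positive cells without a contig had a median of 23356 UMIs, and double-positive cells with a paired receptor lay around 11348.5 UMIs, beside 11100 UMIs for Il17a-only and 10352 UMIs for Ifng-only cells with a paired receptor.

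A second productive alpha chain was found in 16 of the 58 paired double-positive cells (27.6%), in 17.9% of the Il17a-only and in 9.81% of the Ifng-only cells with a paired receptor. For 8 of these 16 cells another brain cell held the same TRB with the same 2 alpha chains; this was so for 20 of 40 such Il17a-only cells and 47 of 132 such Ifng-only cells. The double-positive share was 1.53% of cells with 1 TRA and 4.15% of cells with 2.

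The medians per cell of the transcripts that chose the cells were close to those of the single-positive cells. Il17a had 1 to 298 UMIs per double-positive cell, with a median of 16, against 1 to 221 and a median of 13 in Il17a-only cells. Ifng had 1 to 66 UMIs per double-positive cell, with a median of 5, against 1 to 969 and a median of 4 in Ifng-only cells. Summed over cells, Il17a stood at 1728 CPM (1668 to 1790) in double-positive and 2155 CPM (2104 to 2207) in Il17a-only cells, and Ifng at 535 CPM (502 to 570) in double-positive and 661 CPM (649 to 672) in Ifng-only cells. With a paired receptor the levels were 2453 CPM (2339 to 2571) in double-positive and 2265 CPM (2209 to 2323) in Il17a-only cells for Il17a, and 588 CPM (533 to 647) in double-positive and 681 CPM (668 to 695) in Ifng-only cells for Ifng. Il17a had more UMIs than Ifng in 73 of the 106 cells, fewer in 30 and as many in 3; in cells with a paired receptor the counts were 42, 14 and 2. At the edge of the rule, 16 cells had exactly 1 Il17a UMI, 26 had exactly 1 Ifng UMI and 2 had exactly 1 of both, while 34 Il17a-only cells had exactly 1 Il17a UMI and 317 Ifng-only cells exactly 1 Ifng UMI. Raising the minimum of both transcripts to 2 UMIs left 66 cells (32 with a paired receptor), 3 UMIs left 53 (22), 5 UMIs left 41 (18) and 10 UMIs left 17 (6). In 236 brain barcodes with naive T cell genes, which should lack both cytokines, the median was 11009.5 UMIs. Of these, 3 held Il17a (1.27%), 13 held Ifng (5.51%) and 0 held both (interval up to 1.55%). Single barcodes among them held up to 18 Il17a and 38 Ifng UMIs. So few held either transcript that the 0 for both carries little weight. The cells ranged from cells with a single molecule of either cytokine to 17 cells with at least 10 of each.

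**Figure D2:**
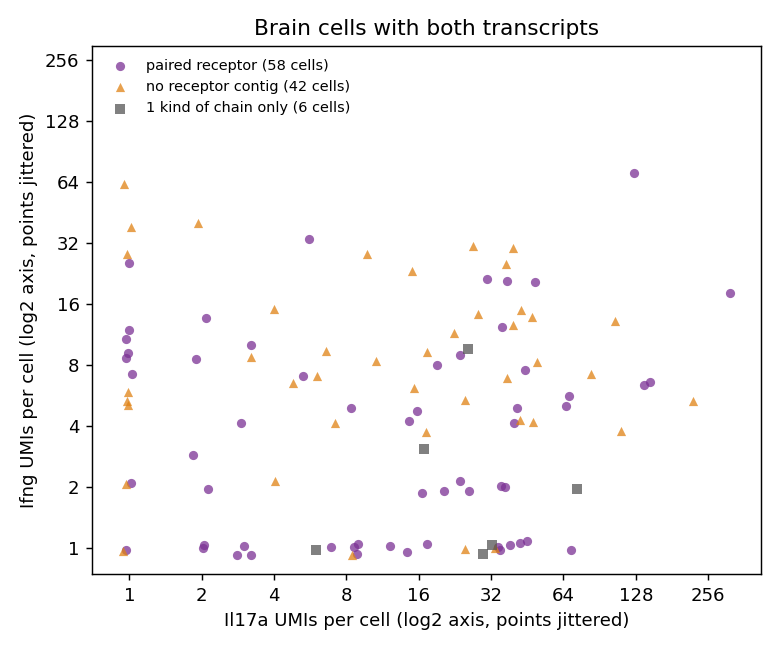
Il17a UMIs against Ifng UMIs in each of the 106 double-positive brain cells, on log2 axes with small jitter; circles are cells with a paired receptor, triangles cells without a receptor contig and squares cells with 1 kind of chain only. The circles have medians of 15 Il17a and 4 Ifng UMIs, and the 16 cells of any marker with exactly 1 Il17a UMI have a median of 8 Ifng UMIs. Of the 17 cells with at least 10 UMIs of each transcript, 6 have a paired receptor.

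Among brain cells that held Il17a, Ifng was found in a smaller share than among those without it. Ifng had a UMI in 28.8% of Il17a-positive cells (24.2 to 33.7%, 106 of 368) and in 45.5% of Il17a-negative cells (43.8 to 47.1%, 1635 of 3596). With a paired receptor the shares were 20.6% (16.1 to 25.8%) and 47.1% (45.2 to 48.9%). Thinning every cell to 5000 UMIs, which drops 3 double-positive, 21 Il17a-only, 90 Ifng-only and 339 other cells, gave 22.1% of Il17a-positive and 41.0% of Il17a-negative cells, and 15.1% and 40.0% with a paired receptor. The thinned double-positive share was 1.89% of all cells and 1.22% of cells with a paired receptor. Conversely, Il17a had a UMI in 6.09% of Ifng-positive cells (5.01 to 7.32%) and in 11.8% of Ifng-negative cells (10.5 to 13.2%).

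Across genes, double-positive cells lay closer to Il17a-only than to Ifng-only cells. A gene was compared when it reached 50 CPM in either group, and was called when its summed CPM differed at least 1.5-fold. A gene far under 50 CPM in 1 group therefore entered through the other group, which fixed the direction of its call. Against Il17a-only cells, 60 of 3695 genes were higher in double-positive cells (1.62%) and 54 lower (1.46%), or 87 higher and 137 lower where each clonotype was weighted alike; against Ifng-only cells, 213 of 3749 were higher (5.68%) and 140 lower (3.73%). In cells with a paired receptor, where fewer UMIs were summed, 131 of 3777 genes were higher (3.47%) and 116 lower (3.07%) than in Il17a-only cells, and 376 of 3884 were higher (9.68%) and 276 lower (7.11%) than in Ifng-only cells. The median log2 ratio over all genes compared was -0.01 and -0.00 in all cells, and 0.03 and 0.04 with a paired receptor.

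Th17 genes stood above Ifng-only cells and, with a paired receptor, close to the level of Il17a-only cells. Of the Th17 genes other than Il17a, 9 of 10 compared were called higher than in Ifng-only cells (10 of 10 with a paired receptor, with median log2 ratios of 2.62 and 3.15). Some of them, such as Il23r (134 against 13.2 CPM) and Il22 (69.4 against 0.218 CPM), reached 50 CPM in double-positive cells only. For such genes the floor left only a higher call possible, so this count leans that way. Against Il17a-only cells 0 of 11 were called higher and 4 lower, and with a paired receptor 0 and 2 of 11 (median log2 ratio -0.34 and -0.08). Rora, a transcription factor of Th17 cells, had 963 CPM in double-positive cells, 1062 CPM in Il17a-only cells and 503 CPM in Ifng-only cells, and 1092, 1031 and 471 CPM in the double-positive, Il17a-only and Ifng-only cells with a paired receptor. Il23r, the receptor chain specific to IL-23, had 134 CPM in double-positive cells, 209 CPM in Il17a-only cells and 13.2 CPM in Ifng-only cells, or 152, 214 and 11.8 CPM with a paired receptor (0.709-fold, 0.572 to 0.872, against Il17a-only cells, ratio and 95% interval). Il1r1, the signalling receptor for IL-1, had 286, 420.3 and 29.6 CPM in double-positive, Il17a-only and Ifng-only cells and 377, 401 and 24.9 CPM with a paired receptor. Tmem176b, an ion channel gene, had 594, 738 and 140.2 CPM, and 724, 767 and 129 CPM with a paired receptor. Il17re, a receptor subunit for IL-17C, had 117, 143 and 16.7 CPM, and 148, 153 and 15.3 CPM with a paired receptor. These genes marked both Il17a-positive groups off from Ifng-only cells. For double-positive over Ifng-only cells, Il17re was 7.01-fold, 5.85 to 8.38, in all cells. Il23r was 12.8-fold, 10.0 to 16.4, in cells with a paired receptor.

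Some genes of the same program were lower than in Il17a-only cells. Ccr6, the receptor for CCL20, had 62.7 CPM in double-positive cells, 173 CPM in Il17a-only cells and 2.84 CPM in Ifng-only cells (0.362-fold, 0.293 to 0.445, against Il17a-only cells), and 91.4, 186 and 1.44 CPM with a paired receptor (0.491-fold, 0.373 to 0.637). Il17f, the IL-17A relative encoded next to it, had 45.5 CPM in double-positive cells, 127 CPM in Il17a-only cells and 0.328 CPM in Ifng-only cells (0.360-fold, 0.280 to 0.457), with UMIs in 15 double-positive cells of which 1 cell gave 30.5%. Tnfsf8, the CD30 ligand, had 428, 933 and 137 CPM and 502, 985 and 130.4 CPM with a paired receptor. Ccr4, a chemokine receptor of Th2 and Th17 cells, had 31.1, 84.3 and 11.7 CPM and 33.7, 90.6 and 11.1 CPM with a paired receptor. Ramp3, which pairs with the calcitonin-receptor-like receptor, had 61.1, 149 and 33.6 CPM, and Ifngr2, the second chain of the interferon gamma receptor, 23.3, 52.5 and 5.68 CPM. Ccr6, Il17f, Tnfsf8, Ccr4, Ramp3 and Ifngr2 were all called lower than in Il17a-only cells with a paired receptor as well. By contrast, Il1r2, the decoy receptor for IL-1, had 265, 187 and 18.5 CPM and 364, 174 and 15.7 CPM with a paired receptor (2.09-fold, 1.79 to 2.44, against Il17a-only cells, with 18.9% of its UMIs from 1 cell). Il22 had 69.4, 119.9 and 0.218 CPM, and 166, 140.2 and 0.206 CPM with a paired receptor, but in all double-positive cells 80% of its UMIs came from 1 cell of clonotype T1.

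Several Th1 genes lay between the single-positive groups. With a paired receptor, on log2(CPM + 5), Ccl5, Il12rb2 and Cxcr3 lay nearer to Il17a-only cells, and Tbx21 and Nkg7 nearer to Ifng-only cells. Of the Th1 genes other than Ifng, 7 of 14 were called higher than in Il17a-only cells and 0 lower, and 3 of 15 higher and 6 lower than in Ifng-only cells. The genes higher in both comparisons were Ccl3 and Ccl4, whose double-positive UMIs came to 99.4% and 97.1% from 1 cell each, and neither was called higher in cells with a paired receptor. With a paired receptor the counts were 4 higher and 0 lower of 10 against Il17a-only cells, and 3 higher and 8 lower of 14 against Ifng-only cells. Tbx21, the lineage factor, had 66.6 CPM in double-positive cells, 14.6 CPM in Il17a-only cells and 123 CPM in Ifng-only cells, and 50.6, 12.3 and 120.4 CPM with a paired receptor; it was 4.11-fold, 2.49 to 6.80, against Il17a-only and 0.420-fold, 0.293 to 0.584, against Ifng-only cells with a paired receptor. Thinned to 5000 UMIs, Tbx21 had a UMI in 18.8% of double-positive cells with a paired receptor, 31.0% of those without a contig, 6.55% of Il17a-only and 41.8% of Ifng-only cells (unthinned 34.5%, 73.8%, 13.0% and 61.8%). Nkg7, a granule membrane gene of Th1 and cytotoxic cells, had 288 CPM in double-positive cells, 25.5 CPM in Il17a-only cells and 741 CPM in Ifng-only cells, and 277, 13.8 and 766 CPM with a paired receptor, where 1 cell gave 41.1% of its double-positive UMIs. Ccl5, a chemokine, had 373, 17.5 and 1104 CPM in all cells but 39.4, 2.61 and 1147 CPM with a paired receptor. Il12rb2, the inducible IL-12 receptor chain, had 60.0, 15.0 and 205 CPM, and 23.9, 13.4 and 207 CPM with a paired receptor. Cxcr3 had 129.9, 79.2 and 285 CPM, and 81.5, 75.3 and 298 CPM with a paired receptor. Tbx21 and Nkg7 stayed above Il17a-only cells in both sets of cells, whereas Ccl5, Il12rb2 and Cxcr3 were called above them in all cells only. With a paired receptor, Ccl5 and Il12rb2 were under 50 CPM in both Il17a-positive groups, so not called. They were still higher in double-positive cells (39.4 against 2.61 CPM and 23.9 against 13.4 CPM), while Cxcr3 was close (81.5 against 75.3 CPM). Cxcr6, a chemokine receptor of tissue-resident T cells, had 650.2, 539.9 and 456 CPM in all cells and 887, 553 and 462 CPM with a paired receptor, where it was called above both single-positive groups.

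**Figure D3:**
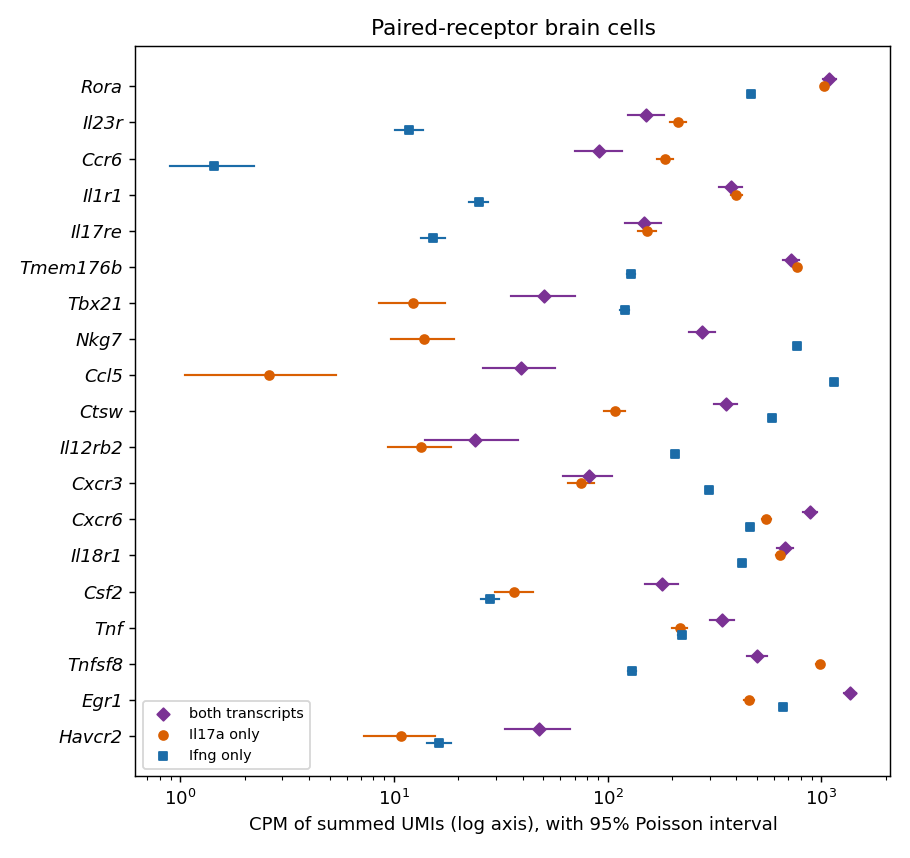
Summed CPM of chosen genes in brain cells with a paired receptor, on a log axis; diamonds are double-positive cells (n = 58), circles Il17a-only cells (n = 223) and squares Ifng-only cells (n = 1345), and bars are exact 95% Poisson intervals. Il1r1 lies with Il17a-only cells (377 and 401 CPM), Tbx21 lies between the groups (50.6, 12.3 and 120.4 CPM), and Csf2 lies above both (179.9, 36.6 and 28.2 CPM).

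Cytotoxic genes lay below Ifng-only cells. Of the cytotoxic genes compared with Ifng-only cells, 0 of 11 were called higher and 9 lower in both sets of cells, and against Il17a-only cells 4 of 5 were higher, or 2 of 5 with a paired receptor. Over all genes, 3.73% were called lower than in Ifng-only cells and 1.62% higher than in Il17a-only cells, or 7.11% and 3.47% with a paired receptor. Ctsw, a lysosomal protease of cytotoxic cells, had 365 CPM in double-positive cells, 117 CPM in Il17a-only cells and 583 CPM in Ifng-only cells, and 357, 108 and 588 CPM with a paired receptor. Gzmb, the granzyme B gene, had 1.67, 8.27 and 55.4 CPM, with UMIs in 2 double-positive cells, neither of which had a paired receptor. Tnfsf10, the gene of the death ligand TRAIL, had 53.3, 29.0 and 69.0 CPM, and Fasl 119, 74.1 and 191 CPM. Zfp683, which encodes the residency factor Hobit, had 9.99, 2.23 and 57.7 CPM, and Itga1, the CD49a integrin chain, 50.5, 7.32 and 152 CPM; both were called lower than in Ifng-only cells.

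Csf2, which encodes the granulocyte-macrophage factor GM-CSF that is needed for EAE in mice, was higher than in both single-positive groups. It had 112 CPM in double-positive cells, 35.3 CPM in Il17a-only cells and 27.2 CPM in Ifng-only cells (3.18-fold, 2.51 to 4.04, against Il17a-only and 4.12-fold, 3.48 to 4.87, against Ifng-only cells). With a paired receptor it had 179.9, 36.6 and 28.2 CPM (4.92-fold, 3.75 to 6.47, and 6.39-fold, 5.20 to 7.81). The UMIs came from 37 of 106 cells, and from 18 of 58 with a paired receptor, where 1 cell gave 28.9%. Tnf had 333, 218 and 228 CPM, and 343, 217 and 222 CPM with a paired receptor. Lta, lymphotoxin alpha, had 99.9, 101 and 59.8 CPM, and Tnfsf11, the RANK ligand, 269, 329 and 118 CPM, both close to Il17a-only cells. Of all listed helper cytokines and ligands apart from Il17a and Ifng, 4 of 8 compared were called higher than in Il17a-only cells and 1 lower, and 4 of 8 higher and 1 lower than in Ifng-only cells. With a paired receptor it was 2 higher and 1 lower of 6, and 5 higher and 3 lower of 9. The chemokine Ccl1, counted among those higher than in Il17a-only cells, drew 96.5% of its double-positive UMIs from 1 cell. The summed levels of Ccl3, Ccl4 and Ccl1 were 197, 406 and 176 CPM in all double-positive cells, and 0, 1.41 and 15.5 CPM in those with a paired receptor.

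Few genes were called, at 1.5-fold, above or below both single-positive groups. Of 3587 genes compared both ways, 11 were called above both groups and 4 below both; with a paired receptor, 61 and 51 of 3688 were. Egr1, an early gene of T cell receptor signalling, had 1209 CPM in double-positive cells, 493 CPM in Il17a-only cells and 717 CPM in Ifng-only cells, and 1368, 458 and 662 CPM with a paired receptor (2.98-fold, 2.74 to 3.25, and 2.07-fold, 1.93 to 2.21, against the Il17a-only and the Ifng-only cells). Egr1 was detected in 82 of 106 double-positive cells, and 1 cell gave 6.98% of its UMIs. Fes, a tyrosine kinase, had 87.2, 53.5 and 20.4 CPM, Camk2n1, an inhibitor of the kinase CaMKII, 105, 66.5 and 59.3 CPM, and Prrt1 51.6, 30.5 and 29.6 CPM. Of the genes below both, Socs3, a feedback inhibitor of cytokine signalling, had 51.6, 80.2 and 118 CPM, Txk, a Tec family kinase, 54.4, 87.8 and 93.1 CPM, Bzw2 70.0, 129 and 111 CPM and Aff3 29.4, 53.1 and 50.4 CPM. With a paired receptor Socs3 had 21.1, 79.4 and 120.3 CPM and Txk 36.5, 88.4 and 92.4 CPM, with UMIs in 11 and 14 of 58 cells. Of the 15 early response genes compared, 1 was called higher than in Il17a-only cells and 7 higher than in Ifng-only cells, with 0 and 0 lower. With a paired receptor 2 and 7 were higher and none lower. The shares called higher over all genes were 1.62% and 5.68%, and 3.47% and 9.68% with a paired receptor. Jun had 1687, 1164 and 1122 CPM, and Fos 2259, 1675 and 1589.8 CPM. Nfkbia, the NF-kappaB inhibitor that the pathway itself induces, had 2323, 1862 and 1487 CPM, and Atf3 267, 251 and 76.8 CPM. Havcr2, which encodes the inhibitory receptor TIM-3, had 48.9, 12.7 and 17.6 CPM (under 50 CPM, so not called), and Pdcd1, which encodes PD-1, 109, 85.0 and 79.9 CPM, or 150.4, 76.1 and 77.2 CPM with a paired receptor.

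Against Ifng-only cells more genes of tissue residency were called higher than lower, few were called against Il17a-only cells, and the recirculation genes that were called were lower. Of the residency genes, 1 of 14 were called higher and 0 lower than in Il17a-only cells, and 5 and 1 of 14 higher and lower than in Ifng-only cells. The lower one was Itga1 (50.5 against 152 CPM), and the residency factor gene Zfp683 was lower too (9.99 against 57.7 CPM). The residency counts with a paired receptor were 1 higher and 0 lower of 12 against Il17a-only cells, and 7 higher and 2 lower of 13 against Ifng-only cells. Of the recirculation genes, 2 of 8 and 5 of 12 were called lower and none higher in either comparison, and with a paired receptor 3 of 8 and 8 of 11. Over all genes, 1.62% were called higher and 1.46% lower than in Il17a-only cells, and 5.68% and 3.73% than in Ifng-only cells. With a paired receptor these shares were 3.47% and 3.07%, and 9.68% and 7.11%. Klf2, a factor that maintains egress receptors, had 230.4, 231 and 296 CPM in all cells but 82.9, 235 and 293 CPM with a paired receptor. S1pr1, the egress receptor itself, had 46.1, 70.3 and 60.0 CPM, and 35.1, 72.7 and 56.8 CPM with a paired receptor. Tcf7, which encodes the memory factor TCF-1, had 191, 311 and 228 CPM. Cd69 had 1007, 804 and 803 CPM, Rgs1 1242, 1101 and 881 CPM and Ccr8 175, 161 and 81.3 CPM. Bhlhe40, a transcription factor needed for GM-CSF in mouse EAE, had 1379, 1407 and 838 CPM, level with Il17a-only cells. Of 12 activation and costimulation genes, none was called against Il17a-only cells in either set of cells, and 5 were called higher and 0 lower than in Ifng-only cells (6 and 1 with a paired receptor). Ctla4, an inhibitory receptor, had 1194, 1364 and 509.8 CPM.

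A scale between the single-positive groups gave the same order gene by gene and cell by cell. It used the 206 genes that differed at least 2-fold between Il17a-only and Ifng-only cells, 127 higher in Il17a-only and 79 higher in Ifng-only cells. With 0 set at the Ifng-only and 1 at the Il17a-only level of each gene, on log2(CPM + 5), the median position of double-positive cells was 0.742, and 0.947 with a paired receptor. Genes higher in Il17a-only cells lay at a median of 0.836 and genes higher in Ifng-only cells at 0.577 (0.967 and 0.843 with a paired receptor). Per cell, the share of the UMIs of these 206 genes that came from the 127 had a median of 78.7% in double-positive cells, 87.6% in Il17a-only cells and 31.6% in Ifng-only cells. Among double-positive cells it was 83.8% with a paired receptor (57.2 to 96.1%) and 65.9% without a contig (23.3 to 90.3%). Of 58 cells with a paired receptor, 50 lay at or above 72.7%, which 90% of Il17a-only cells exceed, 1 lay at or below 57.6%, under which 90% of Ifng-only cells lie, and 7 lay between. Of 42 cells without a contig, 10 lay above, 9 below and 23 between these limits. The single-positive groups chose the 206 genes, so the distance between them on this scale is built in. Tbx21 and Il23r were found together in 20 of 106 double-positive cells (18.9%, 11.9 to 27.6%), 20 of 262 Il17a-only cells (7.63%) and 2.75% of Ifng-only cells. Thinned to 5000 UMIs the shares were 5.35%, 3.08% and 0.882%, and among double-positive cells 3.91% with a paired receptor and 8.21% without a contig.

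**Figure D4:**
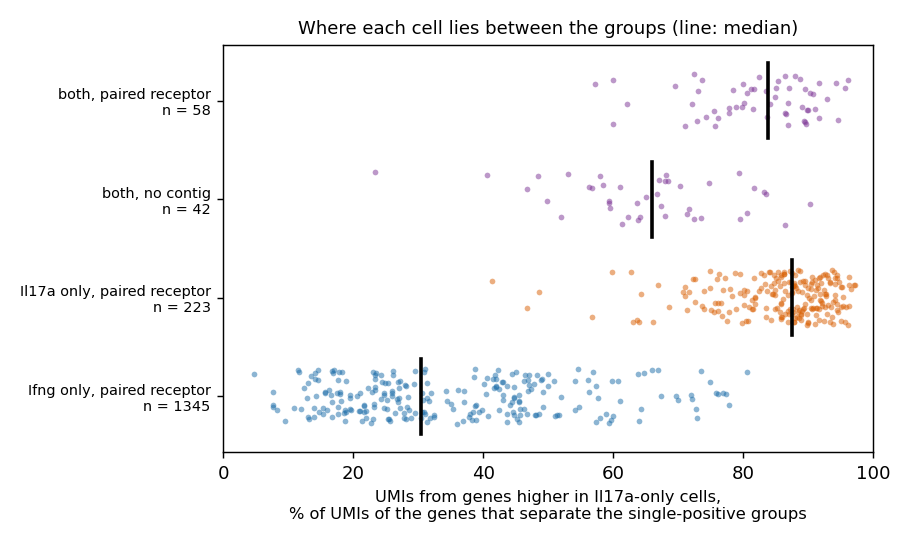
Share of the UMIs of the 206 separating genes that came from genes higher in Il17a-only cells, per brain cell in percent; points are cells (at most 250 drawn per group), lines are medians of all cells in the group. Double-positive cells with a paired receptor (median 83.8%) lie over the Il17a-only cells, and double-positive cells without a contig (median 65.9%) lie between the groups.

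By TRB and the TRA with most UMIs, double-positive cells shared 8 clonotypes with both kinds of single-positive cell, T2 and T8 with the same TRB among them. The 58 double-positive cells with a paired receptor fell into 48 clonotypes, of 2135 in the brain. In 8 clonotypes Il17a-only and Ifng-only cells were found beside the double-positive ones, and these 8 held 17 of the 58 cells (29.3%, 18.1 to 42.7%). Another 3 clonotypes (3 cells) also held Il17a-only but no Ifng-only cells, 12 (12 cells) held Ifng-only but no Il17a-only cells, and 5 (6 cells) held only cells with neither transcript besides. The remaining 20 clonotypes were 1 double-positive cell each. Double-positive cells were in clonotypes of at least 2 brain cells in 65.5% of cases (51.9 to 77.5%), against 54.3% of Il17a-only and 55.2% of Ifng-only cells and 26.1% of cells with neither. Of the 48 clonotypes, 8 were also seen in the spleen, where they held no double-positive cell. In the brain 28 clonotypes held both Il17a-only and Ifng-only cells, 20 of them with no double-positive cell. With clonotypes defined by TRB alone, 7 held all 3 states. It was 6 where all productive alpha chains had to match, and 9 with CDR3 amino acids in place of nucleotides. With at least 2 UMIs required of each transcript, 4 did.

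**Figure D5:**
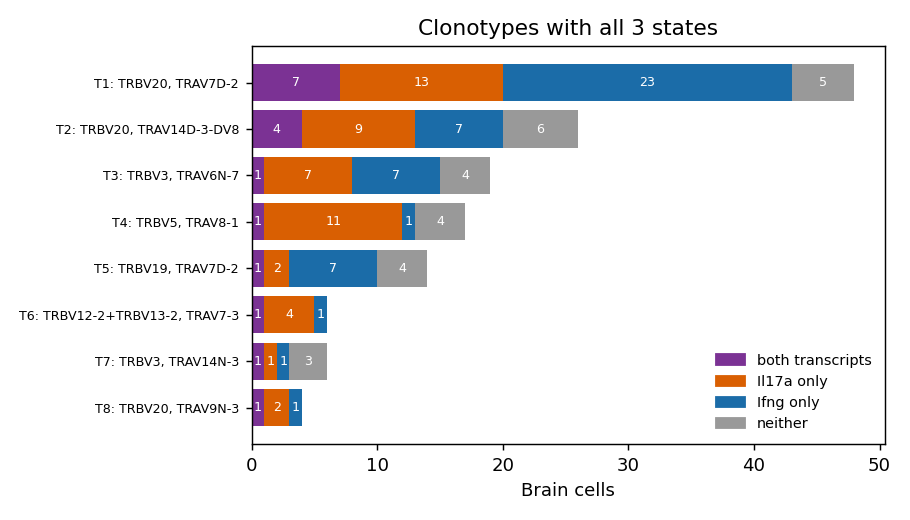
Brain cells of the 8 clonotypes with all 3 states, named T1 to T8 with their V genes; bar lengths are numbers of cells, with double-positive cells first, then Il17a-only, Ifng-only and neither. T1 and T2 hold 7 and 4 double-positive cells, and T3 to T8 hold 1 each.

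T1 was the clonotype with most double-positive cells: 7 double-positive, 13 Il17a-only and 23 Ifng-only cells, with 5 cells of neither kind, and 1 spleen cell. Its double-positive cells held 298, 64, 35, 23, 3, 1 and 1 Il17a UMIs, beside 19, 1, 2, 9, 4, 7 and 2 Ifng UMIs. They ran from a cell with abundant Il17a to cells with mainly Ifng, at a median depth of 9302 UMIs against 8913 UMIs for the other cells of T1. T2 held 4 double-positive, 9 Il17a-only and 7 Ifng-only cells and 6 of neither kind; its double-positive cells had 48, 39, 37 and 9 Il17a UMIs beside 19, 1, 1 and 1 Ifng UMIs. T3 held 1 double-positive cell, 7 Il17a-only and 7 Ifng-only cells, but that double-positive cell had 27495 UMIs and was the one cell of T3 with 2 alpha chains, against a median of 10004 UMIs for the others. T4 held 1 double-positive cell, 11 Il17a-only cells and 1 Ifng-only cell, T5 1, 2 and 7, T6 1, 4 and 1, T7 1, 1 and 1, and T8 1, 2 and 1. T2 and T8 share their TRB: 27 of the 32 brain cells with this TRB held both alpha chains, 5 of the 6 double-positive cells among them, so the split into T2 and T8 follows which alpha chain had more UMIs.

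Within T1 and T2, which hold receptor, tissue and library constant, the double-positive cells again lay near the Il17a-only cells. The per-cell share on the Il17a-only side had a median of 89.5% in double-positive, 89.4% in Il17a-only and 49.7% in Ifng-only cells of T1, and of 89.8%, 93.3% and 50.8% in T2. Il1r1 stood at 619, 654 and 40.4 CPM in double-positive, Il17a-only and Ifng-only cells of T1, and at 578, 619 and 105 CPM in T2. Nkg7 stood at 171, 6.96 and 1233 CPM in T1 and 110.2, 11.1 and 1626 CPM in T2, and so lay between the single-positive groups in both. Tbx21 stood at 26.3, 20.9 and 157 CPM in T1 and 0, 44.2 and 166 CPM in T2, where it had no UMI in the 4 double-positive cells. Egr1 stood at 896, 272 and 333 CPM in T1 and 771, 321 and 452 CPM in T2, above both other states in each. Against the Ifng-only cells of the same clonotype, 11 of 11 Th17 genes in T1 and 8 of 8 in T2 were past 1.5-fold higher, on log2(CPM + 10), and 8 of 9 cytotoxic genes in T1 and 7 of 9 in T2 were lower, with none higher. Here too a gene was compared when it reached 50 CPM in either state, so genes far under 50 CPM in 1 state had their direction set by this floor. With so few cells 45.6% of all genes in T1 and 64.3% in T2 were past 1.5-fold in one direction or the other, so these counts stand on few UMIs.

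Alpha chains that joined TRAV7D-2 to TRAJ23 recurred among double-positive cells. TRAJ23 was used by 16 of 48 (33.3%, 20.4 to 48.4%) clonotypes with a double-positive cell, by 27 of 156 (17.3%, 11.7 to 24.2%) with an Il17a-only cell, by 81 of 822 (9.85%, 7.90 to 12.1%) with an Ifng-only cell, by 8.20% of all brain clonotypes and by 4.25% of spleen clonotypes. Among the 8 clonotypes with all 3 states, 4 used it (T1, T4, T5 and T6). TRAV7D-2 joined to TRAJ23 was found in 8 of the 48 double-positive clonotypes. It was in 7 of 156 clonotypes with an Il17a-only cell and 17 of 822 with an Ifng-only cell. Of all clonotypes, 32 of 2135 in the brain, these 8 among them, and 18 of 6256 in the spleen had it. Counted over cells with a paired receptor, this pair was in 14 of 58 (24.1%, 13.9 to 37.2%) double-positive cells, 20 of 223 (8.97%, 5.56 to 13.5%) Il17a-only cells, 52 of 1345 (3.87%, 2.90 to 5.04%) Ifng-only cells and 16 of 1512 (1.06%, 0.606 to 1.71%) cells with neither. Cells of a clonotype share their receptor by descent, and 7 of the 14 double-positive cells belong to T1, so clonotypes and not cells are the units here. The 8 alpha chains had 6 different CDR3 nucleotide sequences beside 6 different TRBV genes. All were of 39 bases, the length found in 29 of the 32 brain clonotypes with this segment pair. The sequence of T1 occurred in 57 brain cells of 10 clonotypes, 9 of them double-positive, 14 Il17a-only and 29 Ifng-only, and in 1 spleen cell. A7 and A8, each 1 double-positive cell with another beta chain, had it too. Both of these cells held 2 productive alpha chains, and the cell of A7 held 21521 UMIs. T1 and T5 differed at 4 of the 39 bases. The segment pair was looked at after T1 and T5 had been seen, and which antigen these receptors recognise was not measured.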

How the data were processed

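The authors deposited UMI counts per gene and barcode, 1 matrix for each tissue, and annotated receptor contigs with their counts of UMIs. Cell Ranger 9.0.0 and several mouse genome builds are named in the submitters' processing notes, without a role for each build, so no coordinates are given. The brain library held 4277 barcodes and 44386447 UMIs, the spleen library 8707 barcodes and 65191435 UMIs; 31 barcodes occurred in both, 15 of them kept in both and 0 of them double-positive. Receptors were joined to RNA by barcode, productive contigs only, and the alpha chain with most UMIs was used where a cell had 2.

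Raw UMIs were summed over the cells of each state and divided by that state's total (CPM). Ratios carry exact conditional binomial intervals, CPM exact Poisson and shares exact binomial (Clopper-Pearson) intervals, all 95%; UMIs and cells of 1 library are not replicates, so these cover counting error only. A count of 0 allows up to 3 counts of the total. Thinned shares are the hypergeometric expectation at 5000 UMIs. Genes need 50 CPM in either group and a ratio of 1.5 to be called. Genes of the lists could be named, besides the 12 per direction and comparison with the interval bound farthest from 1 and up to 10 above and 10 below both groups; ranked genes whose role in T cells is unclear, or whose levels in double-positive cells rested on few cells, are mostly left unnamed. The double-positive cells, lists and tests were chosen with earlier results of these data known. Some genes are not reported here, and the lists' counts leave them out. On simulated counts, 100 of 100 genes raised and 100 of 100 lowered 3-fold were called in each comparison, as were 2 (against Il17a-only cells) and 6 (against Ifng-only cells) of 3327 unchanged genes. The changed genes were chosen at 100 CPM or more, with the UMI totals of all cells. These counts were drawn from pooled proportions without variation between cells or clonotypes. They therefore do not give the rate of false calls in the data, where some calls rest on 1 cell. Tools were Python 3.11.15, NumPy 2.4.6, SciPy 1.17.1, pandas 2.3.3, matplotlib 3.10.9, R 4.3.3 and edgeR 4.0.16 (TMM factors only).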

Additional observations from a re-analysis of the deposited data

How the results depend on the processing

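The double-positive share (2.67%, 106 of 3964 cells) was 1.78% without the 5% of brain cells with most UMIs (67 of 3765), 1.85% with a paired receptor (58 of 3138) and 1.89% expected after thinning, over the 3511 cells with at least 5000 UMIs. Settings with at least 2 UMIs leave cells with exactly 1 UMI of either transcript out of every group and of the total: the share was then 1.85% (66 of 3573), or 1.66% of all 3964 cells, and with a paired receptor as well 1.13% (32 of 2830), or 1.02% of all 3138 such cells. The Ifng share of Il17a-positive minus that of Il17a-negative cells (-18.87 percentage points at 5000 UMIs) was -13.97 at 2500 UMIs, -19.15 at 8000 UMIs, -23.28 without the deepest 5%, -24.89 with a paired receptor and -26.77 with a paired receptor and at least 2 UMIs. Genes called against Il17a-only cells (114) were 240 without the deepest 5%, 247 with a paired receptor, 224 with clonotypes weighted alike, 323 after thinning, 398 and 47 at 20 and 100 CPM, 32 at 2-fold and 444 with a paired receptor and at least 2 UMIs; against Ifng-only cells (353) they were 616, 652, 594 after thinning, 745, 183, 141 and 804 in the same order, without the clonotype weighting. Fewer UMIs were summed wherever cells were left out or thinned. The median position (0.742) was 0.92 without the deepest 5%, 0.94 with a paired receptor and the scale's genes chosen in those cells, and 0.93 with at least 2 UMIs as well. Clonotypes with all 3 states (8) were 4 at 2 UMIs of each transcript. The setting with a paired receptor and at least 2 UMIs was chosen after seeing the data. Of 75 such comparisons with the values reported, 29 moved and 46 did not.

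Log2 differences, on CPM + 1, that turned round were those of 4 genes. Against Ifng-only cells Ccl3 (3.58) was -3.17 with at least 2 UMIs, -4.26 without the deepest 5%, -4.23 with a paired receptor and -4.24 with both the receptor and 2 UMIs, and Ccl4 (also higher) was -2.53, -5.59, -5.35 and -4.77. Against Il17a-only cells Ccl1 (3.36) was -0.89 without the deepest 5% and -0.26 with a paired receptor, and Il22 (-0.78) was 0.24, 0.24 and, with at least 2 UMIs as well, 0.90. No paired analysis was possible because each tissue has 1 library. Depth limits single cells: 1 UMI of Ifng or Il17a decides a state in 40 of 106 double-positive cells.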
